A study of Mus musculus with 62 samples.

Results

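The 9 genes described here encode enzymes that convert one steroid hormone into another in mouse liver: Cyp17a1, Hsd3b2, Hsd3b3, Hsd3b5, Hsd11b1, Hsd17b2, Hsd17b6, Akr1c6 and Srd5a1. They were taken by symbol from a table of 47643 gene symbols, and all 9 passed the filter of at least 1 TPM (the deposited unit, transcripts scaled by length and library total) in at least 5 libraries, as did 12160 genes in all. The enzymes were chosen by function with results of these data in view. The values selected on included a lower Akr1c6 in cachectic livers at 8 weeks, and which other values led to the choice is not recorded. For the 9 enzymes, comparisons between groups that hold the 8-week cachectic livers are therefore given as differences with standard errors and no p-value. The choice may also have rested on the other comparisons. Correlations among the 9 enzymes keep p-values and include those livers. Genes outside the 9 that come from lists keep their p-values at 8 weeks. The lists too were chosen with earlier results of these data known. Their genes were named mainly for the smallest p or after their values were seen, so their p-values carry that selection.

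Livers came from female mice aged 2 months. They had received melanoma cells that cause cachexia (CAC, a wasting of body mass), melanoma cells that do not (NCAC) or a mock injection (Con), and were sampled at 2, 4, 6 and 8 weeks, with 5 libraries per group and 7 for CAC at 8 weeks. There were 22 CAC, 20 NCAC and 20 Con libraries, labelled biological replicates. The labels name the strain C57BL6/J while the design text names NCI Ath/nude, a strain that lacks T cells, and neither the melanoma lines nor the number of animals behind a library are named in the labels.

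Steroid hormones are made mainly in adrenal gland and gonad, and the liver then activates, inactivates and clears them. The enzymes form a chain of reactions on the steroid nucleus: 3β-hydroxysteroid dehydrogenases, a 17α-hydroxylase, dehydrogenases at other carbons, and reductases that prepare the steroid for excretion. In mouse liver several of these genes are known to differ between the sexes and to follow growth hormone, glucocorticoid or feeding signals.

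Hepatocyte markers were high in every library, with Alb, the serum albumin gene, at 68584 to 103966 TPM. Kidney tubule markers were at or near 0, their summed level never passing 0.123 TPM. Transcripts of other tissues were present in 12 libraries (at least 100 TPM of the pancreatic Ctrb1 or 10 TPM of the muscle Acta1): 2 in CAC at 2 weeks, 3 in NCAC at 4 weeks, 1 in CAC and 2 in Con at 6 weeks, and 2 in NCAC and 2 in Con at 8 weeks. Fat cell transcripts were not part of that rule. Adipoq reached 1 TPM in 19 libraries and Cfd in 26. In CAC at 8 weeks, where the rule marked no library, the summed fat cell markers reached 48.8 TPM. Adrenal transcripts (at least 1 TPM of Cyp11b1) were present in 3 libraries, namely CAC at 6 weeks replicate 1, NCAC at 2 weeks replicate 1 and NCAC at 8 weeks replicate 1. In these 3, Star, which carries cholesterol into the steroid-making mitochondrion, stood at 15.03, 34.8 and 9.60 TPM, and its median over all 62 libraries was 0.754 TPM. Cyp11a1 and Cyp11b2 also reached 1 TPM in 3 libraries, but Star did so in 12 and Cyp21a1 in 11. In CAC at 8 weeks, where Cyp11b1 marked no library, the summed adrenal and gonad markers reached 6.21 TPM, beside 6.23 TPM in Con at 4 weeks. In bulk tissue fewer hepatocytes and less RNA per hepatocyte cannot be told apart.

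In mock-injected liver the levels, which TPM scales by transcript length, differed widely between the enzymes. Over the 20 Con libraries Akr1c6, a 17β-hydroxysteroid dehydrogenase of the aldo-keto reductase family, was highest at 1249 ± 169 TPM (SD). Hsd11b1, which regenerates active glucocorticoid from its inert keto form, followed at 570 ± 58.8 TPM, and Hsd17b6, an oxidative dehydrogenase of androgens, at 555 ± 118 TPM. These last were not separable, since Hsd11b1 exceeded Hsd17b6 in 12 of the 20 libraries. Hsd17b2, which oxidises estradiol and testosterone to weaker hormones, stood at 232 ± 69.1 TPM. Hsd3b3 and Hsd3b2, the 3β-hydroxysteroid dehydrogenases, stood at 61.0 ± 17.02 and 34.5 ± 11.3 TPM. Cyp17a1, the 17α-hydroxylase and 17,20-lyase of androgen synthesis, stood at 32.4 ± 24.9 TPM and ran from 2.90 to 89.6 TPM. Srd5a1, a 5α-reductase, stood at 20.1 ± 4.40 TPM. Hsd3b5, which is predominant in male mouse liver, was lowest at 7.22 ± 7.37 TPM, with a range of 0.576 to 28.4 TPM. Between neighbours in this order, Akr1c6 over Hsd11b1 and Hsd17b2 over Hsd3b3 had ranges that did not meet and the other neighbours' ranges overlapped, and Hsd3b2 exceeded Cyp17a1 in 11 and Cyp17a1 exceeded Srd5a1 in 13 of 20 libraries. None of the 9 was called between Con at 8 and Con at 2 weeks (limma, 0 called with 0.296% of all genes called, and 2 at an unadjusted p under 0.05). The lowest adjusted p was 0.3756 for Hsd17b6.

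**Figure D1:**
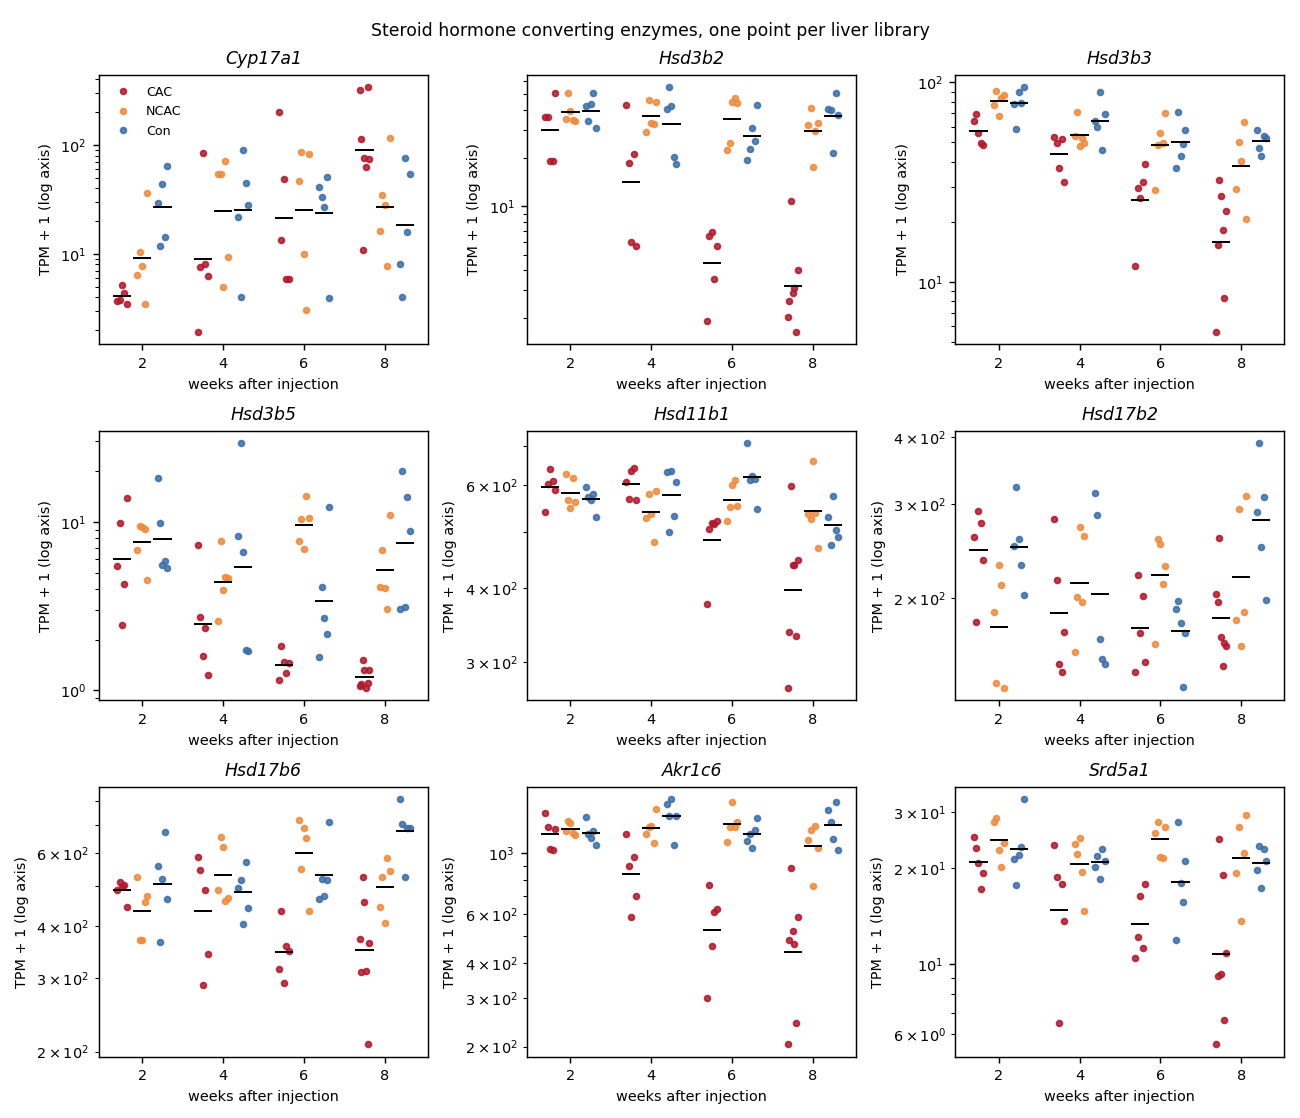
Level of each of the 9 enzymes in every liver library (vertical log axis, TPM plus 1) against weeks after injection, with CAC, NCAC and Con drawn left to right at each week and a bar at the mean on the log scale. The 7 CAC livers at 8 weeks lie at 0.649 to 9.83 TPM for Hsd3b2, below all Con livers, and at 9.84 to 341 TPM for Cyp17a1.

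The 3β-hydroxysteroid dehydrogenases sit in 1 cluster on mouse chromosome 3, where 6 Hsd3b genes lie in 361 kb (mm10, 98499071 to 98859794). Hsd3b5 lies at 98618634 to 98630252, Hsd3b2 at 98709255 to 98724543 and Hsd3b3 at 98741523 to 98763127, all on the minus strand. The 3 are close copies: the transcripts of Hsd3b2 and Hsd3b3 were 94.2% identical over the aligned bases, Hsd3b2 and Hsd3b5 85.6% and Hsd3b3 and Hsd3b5 80.8%. Of all 50-base windows of the longest transcript, 74.5% for Hsd3b2, 71.3% for Hsd3b3 and 78.8% for Hsd3b5 occurred in no other gene, so reads of the remaining windows could be split between copies in a way the table does not state. The 250 bases before the RefSeq start (GRCm38.p6) are printed for these 3, which lie in 1 cluster. All 3 were also below every Con liver in CAC livers at 8 weeks, as were 6.09% of all genes. That contrast was in view when the enzymes were chosen, so nothing is read from it. Akr1c6, on another chromosome, was below every Con liver as well, and its window is not printed. For Hsd3b5 the RefSeq start is 98645534, upstream of the span 98618634 to 98630252 given above. The 2 gene models thus differ, and its window does not adjoin that span. Capitals mark, in Hsd3b3 and Hsd3b5, the longest run that the 2 share, and in Hsd3b2 the hexamer AGAACA that the glucocorticoid receptor can bind.

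Hsd3b3, chr3:98763129-98763378, minus strand: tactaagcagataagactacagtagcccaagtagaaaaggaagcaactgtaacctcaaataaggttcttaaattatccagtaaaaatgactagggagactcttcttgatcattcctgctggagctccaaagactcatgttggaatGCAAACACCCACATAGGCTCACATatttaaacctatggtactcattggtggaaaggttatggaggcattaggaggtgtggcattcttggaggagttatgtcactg
Hsd3b5, chr3:98645535-98645784, minus strand: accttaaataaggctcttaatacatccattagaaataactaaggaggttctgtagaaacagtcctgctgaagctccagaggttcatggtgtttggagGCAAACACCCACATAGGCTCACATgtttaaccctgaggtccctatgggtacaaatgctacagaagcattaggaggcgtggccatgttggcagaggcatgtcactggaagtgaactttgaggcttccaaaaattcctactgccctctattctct
Hsd3b2, chr3:98724544-98724793, minus strand: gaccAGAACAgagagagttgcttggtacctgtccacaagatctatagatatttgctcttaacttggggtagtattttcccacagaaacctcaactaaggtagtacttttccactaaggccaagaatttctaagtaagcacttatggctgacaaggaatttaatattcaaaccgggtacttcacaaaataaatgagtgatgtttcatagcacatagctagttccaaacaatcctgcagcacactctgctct

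The shared run of 24 bases starts 105 bases before the start in Hsd3b3 and 153 in Hsd3b5. It occurred in 3 of 32851 RefSeq windows of the same length (0.00913%), all of them at Hsd3b3 and Hsd3b5. RefSeq gives Hsd3b3 a second start 718 bases away whose window is 99.6% identical. The aligned windows of Hsd3b3 and Hsd3b5 were 78.2% identical, those of Hsd3b2 and Hsd3b5 76.2% and those of Hsd3b2 and Hsd3b3 74.5%. AGAACA, searched on both strands, was held by 16.1% of all windows, and among the 9 windows available for 7 of the enzymes only by that of Hsd3b2, 246 bases before the start. TTCNNNGAA, bound by STAT factors, was in 7.02% of all windows and TTGCNNAA, bound by C/EBP factors, in 9.56%, and the 9 windows held neither.

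In CAC liver Hsd3b2 was lower at 6 weeks by 2.62 ± 0.40 on the scale of log2(TPM + 1) (limma standard error; adjusted p = 2.768e-06). The 5 CAC livers had 0.915, 5.53, 5.89, 2.52 and 4.64 TPM, against 18.5, 21.9, 29.9, 24.7 and 41.9 TPM in Con livers. The 5 NCAC livers had 21.4, 23.8, 43.7, 46.4 and 42.9 TPM. No CAC value at 6 weeks reached any NCAC or Con value, and against NCAC the difference was −2.98 ± 0.40 (adjusted p = 1.839e-07). At 4 weeks CAC livers were spread, at 17.7, 5.02, 20.1, 4.69 and 41.6 TPM, against 28.1 to 44.97 TPM in NCAC livers and 17.5 to 54.6 TPM in Con livers. That difference from Con of −1.19 ± 0.40 was not called (adjusted p = 0.1259), though it was called without CAC replicate 5, the highest of the group (−1.59, adjusted p = 0.01545). At 2 weeks the group ranges overlapped, 18.0 to 49.9 TPM in CAC and 29.6 to 49.7 TPM in Con livers.

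At 8 weeks the 7 CAC livers held 0.649 TPM of Hsd3b2 at the lowest, 1.89 at the median and 9.83 at the highest. The 5 NCAC livers held 31.0, 39.9, 16.5, 28.6 and 31.8 TPM, and the 5 Con livers 39.1, 38.9, 20.6, 50.2 and 36.3 TPM. Again no CAC liver reached another group, and the difference from Con was −3.52 ± 0.37. The fall in CAC relative to Con was larger at 6 than at 2 weeks by 2.22 ± 0.57 (interaction term of the same fit, adjusted p = 0.01707). That term was called for Hsd3b2 and Akr1c6 out of the 9, where 1.30% of all genes were called lower and 1.65% higher, and it held for neither without CAC replicate 1 at 6 weeks (Hsd3b2 −1.92, adjusted p = 0.06676; Akr1c6 −0.94, adjusted p = 0.103).

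Hsd3b3 moved less than its neighbour. At 6 weeks it had 11.02, 28.5, 25.4, 30.5 and 38.2 TPM in CAC livers, against 27.9, 47.7, 54.5, 48.6 and 68.9 TPM in NCAC livers and 36.3, 69.7, 42.0, 48.0 and 56.4 TPM in Con livers. The ranges touched, since the highest CAC liver stood above the lowest of both other groups. The difference from Con of −0.96 ± 0.30 was called (adjusted p = 0.02244), but not without CAC replicate 1, the library with adrenal transcripts (−0.68, adjusted p = 0.1446), nor without Con replicate 2 (−0.83, adjusted p = 0.06214) or Con replicate 5 (−0.91, adjusted p = 0.05428). At 8 weeks the CAC livers had 4.62 TPM at the lowest, 17.2 at the median and 31.5 at the highest, against 19.7 to 62.6 TPM in NCAC livers and 41.9 to 56.9 TPM in Con livers. The 7 CAC livers were all below the 5 Con livers, with a difference of −1.67 ± 0.27.

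Hsd3b5 was under 1 TPM in all CAC livers at 6 weeks, with 0.158, 0.824, 0.472, 0.264 and 0.455 TPM. The NCAC livers had 6.65, 9.45, 5.91, 13.2 and 9.49 TPM, and the Con livers 0.576, 3.09, 1.69, 1.16 and 11.2 TPM. CAC thus lay wholly below NCAC (−2.76 ± 0.54, adjusted p = 0.0001903) and overlapped with Con (−1.26 ± 0.54, adjusted p = 0.09648). The difference from Con was called when the pseudocount was 0.1 in place of 1 (−2.19, adjusted p = 0.03268). At 8 weeks the 7 CAC livers lay between 0.0321 and 0.510 TPM, against 2.06 to 10.03 TPM in NCAC livers and 2.03 to 19.1 TPM in Con livers, and did not meet either group. The difference from Con was −2.65 ± 0.50, and −4.55 with the pseudocount of 0.1.

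Among neighbours of the cluster, Hao2, a hydroxyacid oxidase higher in female liver, followed Hsd3b2 over the 62 libraries with r = 0.915. Hsd3b1, the adrenal and gonadal form, did not follow it (r = 0.0754). Hsd3b1 was at 23.2, 44.8 and 23.7 TPM in the 3 libraries with adrenal transcripts, and averaged 0.849 TPM in Con livers. In the first of these, CAC at 6 weeks replicate 1, Hsd3b2 was 0.915 TPM, the lowest of its group. In NCAC at 2 weeks replicate 1 and NCAC at 8 weeks replicate 1 it was 34.1 and 31.0 TPM. The part of adrenal tissue in these levels was not tested.

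**Figure D2:**
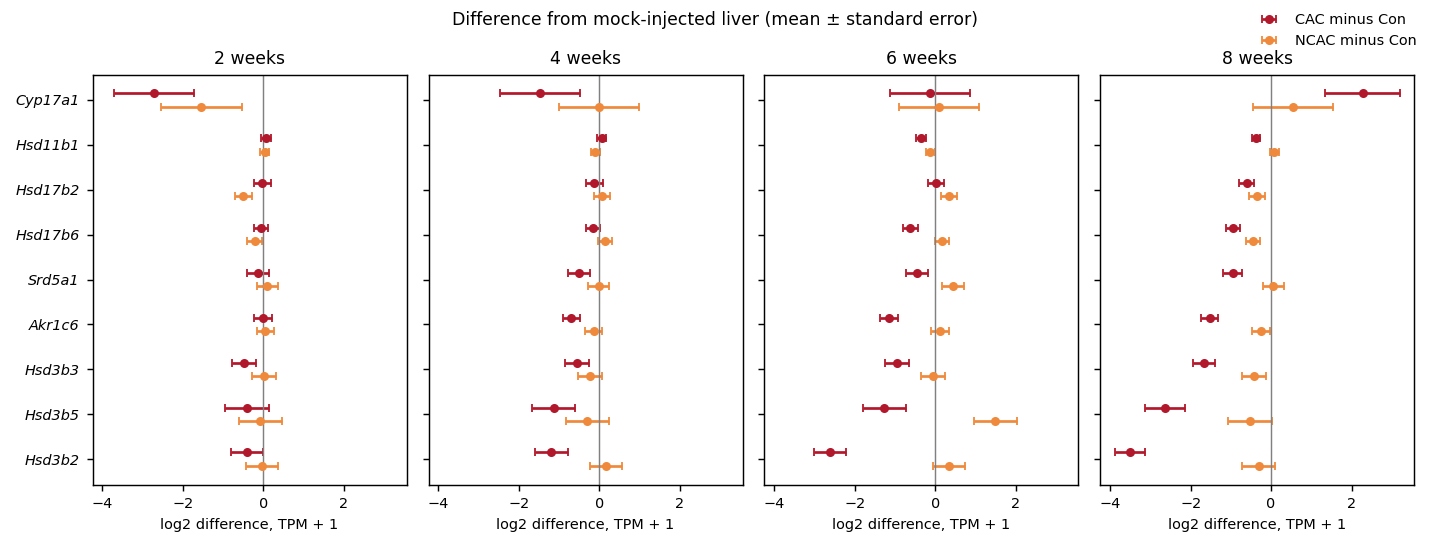
Difference of CAC (red) and NCAC (orange) from Con livers for each enzyme at 2, 4, 6 and 8 weeks on the log2(TPM + 1) scale, with bars of 1 standard error from the limma fit. Hsd3b2 lies at −2.62 in CAC livers at 6 weeks and at −3.52 at 8 weeks, and Cyp17a1 is the 1 enzyme above 0 in CAC livers at 8 weeks.

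Akr1c6, on chromosome 13 at 4434306 to 4457877 (plus strand), reduces keto steroids. At 6 weeks it had 299.8, 763, 459, 611 and 628 TPM in CAC livers, against 1096, 1239, 1527, 1238 and 1288 TPM in NCAC livers and 1100.3, 1172, 1036, 1205 and 1339 TPM in Con livers. The CAC livers lay below all 10 others, by 1.15 ± 0.22 against Con (adjusted p = 0.0001461) and by 1.27 ± 0.22 against NCAC (adjusted p = 2.44e-05). At 2 weeks it averaged 1180.3 ± 153 TPM in CAC, 1223 ± 63.6 TPM in NCAC and 1182 ± 102 TPM in Con livers (SD, n = 5 each). At 4 weeks the values were 893, 584, 967, 701 and 1171 TPM in CAC livers, against 1066 to 1561 TPM in Con livers, and the difference of −0.69 ± 0.22 was not called (adjusted p = 0.08985). Without CAC replicate 5 that difference was called (−0.81, adjusted p = 0.039). At 8 weeks the CAC livers had 203 TPM at the lowest, 484 at the median and 878 at the highest, against 756 to 1251 TPM in NCAC livers and 1027 to 1526 TPM in Con livers.

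Of the Akr1c genes beside it, Akr1c12 fell by 0.49 ± 0.10 (adjusted p = 0.0003385) and Akr1c20 by 0.91 ± 0.19 (adjusted p = 0.0005577) at 6 weeks against Con. Akr1c19 was not called (−0.54 ± 0.35, adjusted p = 0.2784). Akr1c6 and Akr1c20 share 50-base windows, though 97.9% of those of Akr1c6 are its own. Over the 62 libraries Akr1c6 correlated with Akr1c12 at r = 0.890 with Akr1c20 at r = 0.855 and with Akr1c19 at r = 0.729. Its closest genes anywhere were the sulfotransferase Sult2a8 (r = 0.946), the carbonic anhydrase Car3 (r = 0.940) and Ugt2b36 (r = 0.940).

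Hsd17b6 is at chromosome 10, 127990936 to 128007611 on the minus strand. It had 314, 433, 292, 358 and 348 TPM in CAC livers at 6 weeks, against 721, 549, 688, 649 and 434 TPM in NCAC livers and 464, 519, 473, 517 and 710 TPM in Con livers. Every CAC liver was below every NCAC and Con liver, by −0.61 ± 0.18 against Con (adjusted p = 0.01508) and −0.79 ± 0.18 against NCAC (adjusted p = 0.001385). The call against Con did not hold without CAC replicate 1 (−0.58, adjusted p = 0.05054) or Con replicate 5 (−0.51, adjusted p = 0.06885). After 8 weeks the CAC livers ran from 207 to 525 TPM around a median of 364 TPM, against 406 to 581 TPM in NCAC livers and 523 to 807 TPM in Con livers, a difference of −0.94 ± 0.17 from Con. Only 86.5% of the 50-base windows of Hsd17b6 are unique, the others being shared with retinol dehydrogenase genes beside it. The nearby pseudogene Rdh18-ps, among those that share windows, correlated with it at r = 0.809, and whether reads of one were counted to the other is not known.

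Hsd17b2, at chromosome 8, 117701904 to 117759027 on the plus strand, did not follow the others at 6 weeks. It had 145, 221, 171, 201 and 151 TPM in CAC livers, against 163, 257, 252, 212 and 229 TPM in NCAC livers and 190, 197, 179, 136 and 171 TPM in Con livers. The groups overlapped and the difference from Con was 0.02 ± 0.21 (adjusted p = 0.962). In the 8-week set the CAC livers ran from 149 to 258 TPM around a median of 169 TPM, against 162 to 309 TPM in NCAC livers and 197 to 389 TPM in Con livers. The difference was −0.61 ± 0.19 from Con and −0.26 ± 0.19 from NCAC.

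Hsd11b1, at chromosome 1, 193221634 to 193264075 on the minus strand, kept most of its level. At 6 weeks it had 376, 504, 516, 514 and 520 TPM in CAC livers, against 520, 550, 598, 612 and 551 TPM in NCAC livers and 706, 612, 620, 612 and 545 TPM in Con livers. The CAC livers were all below the Con livers by a small amount, −0.35 ± 0.11 (adjusted p = 0.02702), a call lost without CAC replicate 1 (−0.26, adjusted p = 0.1464), without Con replicate 1 (−0.31, adjusted p = 0.07498) and after median-of-ratios rescaling, which centres the typical gene of each library (−0.22, adjusted p = 0.1805). The 8-week CAC livers ran from 270 to 596 TPM around a median of 437 TPM, against 467 to 659 TPM in NCAC livers and 474 to 573 TPM in Con livers. That difference of −0.37 ± 0.11 shrank to −0.11 after the same rescaling. Lamb3 lies over the gene on the other strand, and whether counting used strand is not given in the sources used here.

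Srd5a1, at chromosome 13, 69573449 to 69611442 on the minus strand, was called lower in CAC livers at 6 weeks against NCAC (−0.89 ± 0.27, adjusted p = 0.01729). It had 9.39, 11.1, 15.4, 10.3 and 16.9 TPM in CAC livers, against 24.9, 27.0, 20.7, 20.6 and 26.0 TPM in NCAC livers and 10.9, 26.9, 17.001, 14.6 and 20.2 TPM in Con livers. The CAC and NCAC ranges were apart, while CAC and Con overlapped (−0.45 ± 0.27, adjusted p = 0.2293). Without CAC replicate 1 the difference from NCAC was −0.80 (adjusted p = 0.06994). By 8 weeks the CAC livers ran from 4.57 to 23.8 TPM around a median of 8.26 TPM, against 12.6 to 28.4 TPM in NCAC livers and 16.3 to 22.5 TPM in Con livers, and the difference from Con was −0.96 ± 0.25. Nsun2 lies over the gene on the other strand.

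Cyp17a1 took another course. At 2 weeks it had 2.73, 2.80, 4.199, 3.39 and 2.47 TPM in CAC livers, against 5.36, 9.51, 6.77, 2.48 and 35.2 TPM in NCAC livers and 28.2, 10.7, 42.6, 13.3 and 63.5 TPM in Con livers. All 5 CAC livers were below all 5 Con livers, as were 4.91% of all genes, yet the difference of −2.72 ± 1.00 was not called (adjusted p = 0.3432). At 4 weeks the CAC livers had 6.59, 83.3, 7.07, 5.21 and 0.924 TPM, against 21.0, 3.00, 89.6, 43.8 and 27.2 TPM in Con livers. At 6 weeks they had 199.9, 12.4, 48.2, 4.94 and 4.88 TPM, against 40.0, 32.2, 26.0, 49.6 and 2.90 TPM in Con livers. At both weeks the groups overlapped, with differences of −1.47 ± 1.00 and −0.13 ± 1.00 (adjusted p = 0.5671 and 0.9444).

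After 8 weeks the CAC livers had 317, 112, 9.84, 74.5, 61.7, 341 and 73.7 TPM of Cyp17a1. The NCAC livers had 15.3, 33.6, 27.3, 6.83 and 114 TPM, and the Con livers 7.00, 3.03, 75.7, 15.05 and 53.5 TPM. The 3 highest CAC livers were above every Con liver and the others overlapped with it, and the difference was 2.28 ± 0.93 from Con and 1.73 ± 0.93 from NCAC. The standard error of Cyp17a1 was the widest of the 9, and at 4 weeks, for example, its levels overlapped across all 3 arms. Of the 3 libraries with adrenal transcripts, CAC at 6 weeks replicate 1 had 199.9 TPM of Cyp17a1, NCAC at 2 weeks replicate 1 had 5.36 TPM and NCAC at 8 weeks replicate 1 had 15.3 TPM. The second of these had the highest Star and Cyp11b1 of all, with Cyp17a1 at the lowest of the 3. The 3 libraries belong to 3 groups, and the part of adrenal tissue in their Cyp17a1 was not tested.

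Cyp17a1 lies on chromosome 19 at 46667165 to 46673172 (minus strand). The tested gene whose level followed it most closely lies 34.3 kb away. The 9 enzymes and predicted, clone, Rik and pseudogene symbols were left out of that ranking. As3mt, which methylates arsenic (46707458 to 46741099, plus strand), correlated with it at r = 0.885 over the 62 libraries and at r = 0.914 for deviations from the group means. As3mt was chosen as the gene of highest correlation, so its r and its differences are a description, with no test. At 8 weeks As3mt averaged 79.5 ± 15.7 TPM in CAC (n = 7), 43.1 ± 12.7 TPM in NCAC and 39.8 ± 13.2 TPM in Con livers (SD, n = 5 each), a difference of 1.02 ± 0.28 from Con. At 6 weeks it averaged 63.1 ± 26.7 TPM in CAC, 38.2 ± 13.6 TPM in NCAC and 46.5 ± 14.2 TPM in Con livers (0.40 ± 0.30 from Con).

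Of the 8 tested genes within 200 kb of Cyp17a1, 3 had r above 0.5. Besides As3mt these were Sfxn2, a mitochondrial serine transporter family member 69.1 kb away (r = 0.595), and Borcs7, a lysosome positioning subunit 16.7 kb away (r = 0.554). The nearest, Wbp1l, had r = 0.315, and Arl3, Cnnm2, Trim8 and Sufu ran from −0.0892 to 0.132. With the same symbols left out, the genes next closest to Cyp17a1 by level were Amica1 (r = 0.608) and Sfxn2.

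**Figure D3:**
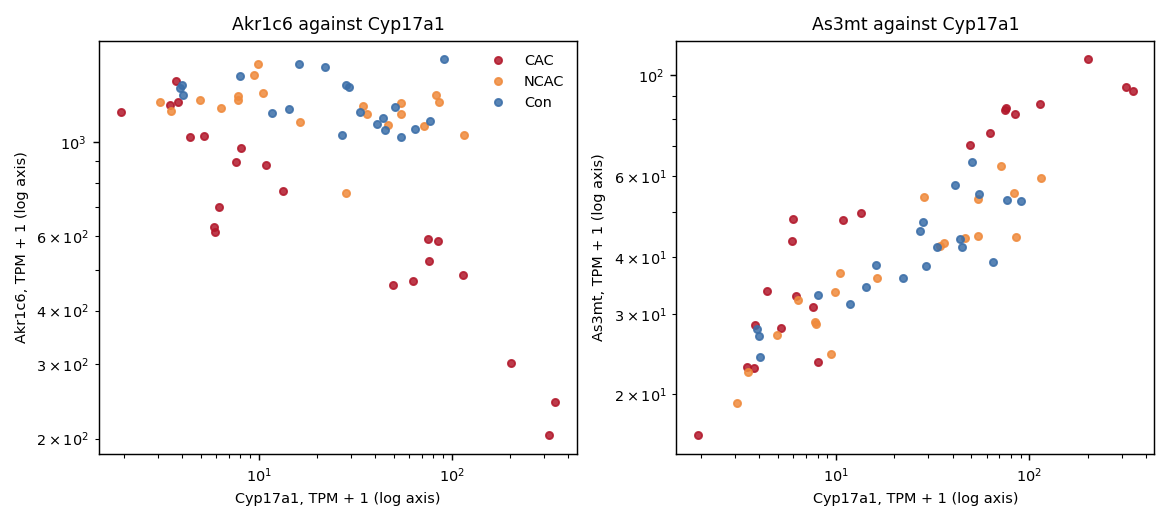
Akr1c6 (left) and As3mt (right) against Cyp17a1, each point 1 liver library with both axes logarithmic (TPM plus 1) and CAC, NCAC and Con in red, orange and blue. The CAC livers with over 60 TPM of Cyp17a1 lie at or below 588 TPM of Akr1c6, and As3mt follows Cyp17a1 with r = 0.885 over the 62 libraries.

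Taking the members as a list, none of the 9 was called in CAC against Con at 2 weeks (limma; 0.00822% of all genes called; 1 at an unadjusted p under 0.05) or at 4 weeks (1.91% of all genes called; 3 at an unadjusted p under 0.05). At 6 weeks 5 were called lower, where 10.3% of all genes were lower, and 0 were called higher, where 5.00% of all genes were higher. The 5 were Hsd3b2, Akr1c6, Hsd17b6, Hsd3b3 and Hsd11b1, and without CAC replicate 1 or without the other-tissue libraries 2 were called in place of 5. In 4 of the 9 the CAC and Con ranges did not meet at 6 weeks, with CAC lower, and the same held of 10.04% of all genes. The same fit at 8 weeks called 8 lower and 1 higher, beside 35.3% and 5.87% of all genes, and 4 had CAC wholly below Con, beside 6.09% of all genes. Nothing is read from these 8-week counts because that contrast was in view when the enzymes were chosen.

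The median difference of the 9 from Con was −0.13, −0.55, −0.61 and −0.96 at 2, 4, 6 and 8 weeks, beside −0.07, −0.05, −0.12 and −0.21 over all tested genes. In the 8-week comparison the all-gene median moved to 0.01 after median-of-ratios rescaling and to −0.36 after rescaling without the 20 highest genes. None of the members' differences changed sign where it was called.

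Against NCAC, CAC livers had 0 members called at 2 weeks (limma; 0.00% of all genes; 1 at an unadjusted p under 0.05) and 0 at 4 weeks (1.27% of all genes; 2 at an unadjusted p under 0.05). At 6 weeks 6 were called lower, beside 5.54% of all genes, and 0 higher, beside 6.55%. The 6 were Hsd3b2, Akr1c6, Hsd3b5, Hsd17b6, Srd5a1 and Hsd3b3 (−0.91 ± 0.30, adjusted p = 0.03318). The call of Hsd3b3 was lost without CAC replicate 1 or 3 or without NCAC replicate 2, 3, 4 or 5 (adjusted p of 0.05148 to 0.2193). In 5 of the 9 the 2 ranges did not meet, beside 5.89% of all genes. At 8 weeks the fit called 7 lower and 0 higher, beside 43.1% and 5.09% of all genes, and in 2 the ranges did not meet, beside 13.99% of all genes, with nothing read from either. In NCAC against Con 0 members were called by limma at 2, 4, 6 or 8 weeks, where 0.00%, 0.00%, 0.00% and 0.181% of all genes were called. At an unadjusted p under 0.05 there were 1, 0, 1 and 1 members at the 4 weeks. The lowest adjusted p was 0.3524 for Hsd17b6 at 8 weeks (−0.45 ± 0.18). CAC and NCAC were each set against the same Con livers.

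Deviations of log2(TPM + 1) from the group means over the 62 libraries gave 36 pairs. Of these, 25 had an adjusted p of r under 0.05 (permutation within groups, 100000 draws, Benjamini-Hochberg over the pairs). These p-values include the CAC livers at 8 weeks, whose results were in view when the enzymes were chosen. No p was computed without those livers. All 8 pairs with Cyp17a1 were negative, and 27 of the 28 pairs among the other enzymes were positive. Within the CAC, NCAC and Con arms 8, 6 and 6 of the Cyp17a1 pairs were negative, and 28, 18 and 18 of the other pairs were positive. Calls and signs were not counted for pairs of other tested genes. Whether this pattern is particular to these enzymes was therefore not tested. In Con livers Cyp17a1 with Hsd11b1 gave 0.528 and with Hsd3b3 0.0879, and in NCAC livers Cyp17a1 with Srd5a1 gave 0.382 and with Hsd3b5 0.116. Without the CAC livers at 6 and 8 weeks Cyp17a1 with Hsd11b1 was 0.0259. The strongest positive pairs were Hsd3b3 with Akr1c6 (r = 0.763, rho = 0.646) and Hsd3b2 with Akr1c6 (r = 0.741, rho = 0.664), each at an adjusted p of 9e-05, the smallest these permutations can give. Without the 2 libraries farthest from the median they were 0.657 and 0.675. Hsd3b3 with Akr1c6 gave 0.922, 0.318 and 0.477 within the CAC, NCAC and Con arms and 0.450 without the CAC livers at 6 and 8 weeks. Hsd3b2 with Akr1c6 gave 0.780, 0.743 and 0.579 within the arms and 0.776 without those livers.

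Cyp17a1 with Akr1c6 was the strongest negative pair (r = −0.604, adjusted p = 9e-05; rho = −0.591, adjusted p = 0.00018; permutation test). It was −0.534 without the 2 farthest libraries, and −0.848, −0.348 and −0.410 within the CAC, NCAC and Con arms. Without the CAC livers at 6 and 8 weeks it was −0.473. Cyp17a1 and Hsd3b2 gave −0.545 (rho −0.457), and −0.704, −0.252 and −0.567 within the arms. By rho 4 of the 8 Cyp17a1 pairs kept an adjusted p under 0.05. Hsd3b2 and Hsd3b5 were correlated at 0.616 but Hsd3b3 and Hsd3b5 at 0.128 (adjusted p = 0.248, permutation test). By level over the 62 libraries, which also carries the differences between groups, these pairs gave 0.826 and 0.604. Whether the promoter run that Hsd3b3 and Hsd3b5 share bears on their levels was not tested. Hsd11b1 and Srd5a1 gave 0.620 within CAC but −0.663 within NCAC and −0.610 within Con, a difference between arms that was not tested.

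**Figure D4:**
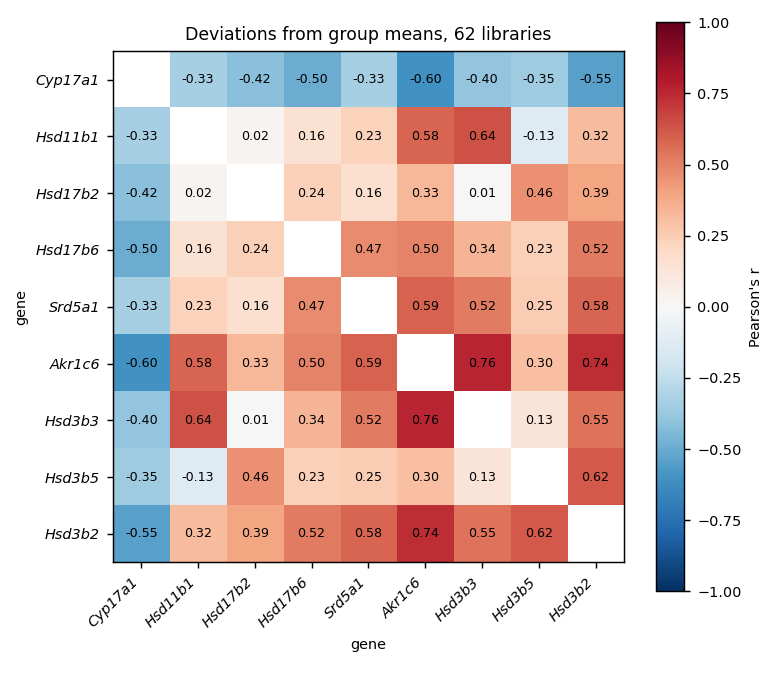
Pearson's r between the 9 enzymes for deviations of log2(TPM + 1) from the group means over the 62 libraries, blue for negative and red for positive values. The row of Cyp17a1 is blue throughout, from −0.33 to −0.60, and the block of Akr1c6, Hsd3b3 and Hsd3b2 holds values of 0.55 to 0.76.

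Among the CAC livers at 8 weeks, replicate 3 had the highest level for 8 of the 9 enzymes and the lowest for Cyp17a1, with 878 TPM of Akr1c6, 9.83 TPM of Hsd3b2 and 9.84 TPM of Cyp17a1. Its Srd5a1 (23.8 TPM) and Hsd11b1 (596 TPM) were above every Con liver of that week.

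Some of 12 clock genes varied with Hsd17b2 within groups. Its deviations correlated at r = −0.757 with Cry1, a repressor of the circadian clock, at 0.739 with Nr1d1, another clock repressor, and at −0.653 with Per2. With Arntl, Clock, Nr1d2 and Per3 the r was 0.107, −0.0350, 0.116 and −0.211, and with the other 5 it ran from −0.551 to 0.354. These clock genes were chosen after the values were seen, and the hour of sampling is not given in the labels. For Cyp17a1 the 12 clock genes gave r between −0.358 and 0.369, for Hsd11b1 between −0.0991 and 0.133, for Hsd3b2 up to 0.394 with Nr1d1, and for Hsd3b5 from −0.366 with Ciart to 0.387 with Npas2. Beside this, with the same symbols left out as for Cyp17a1, the closest genes to Hsd17b2 by level over the 62 libraries were Lgals9 (r = 0.834), Ubxn1 (r = 0.818) and Smagp (r = 0.815).

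By level over the 62 libraries the other enzymes had these nearest genes, with the 9 enzymes and predicted, clone, Rik and pseudogene symbols left out. For Hsd17b6 the pseudogene Rdh18-ps, at r = 0.809, was thus passed over. Hsd3b2 was closest to Ces3a, a carboxylesterase (r = 0.960), Lipc, the hepatic lipase (r = 0.947), and Sult2a8 (r = 0.938). Hsd3b3 was closest to Serpina6, the corticosteroid-binding globulin of plasma (r = 0.872), Inmt, an amine methyltransferase (r = 0.869), and Cyp2b13, a cytochrome P450 higher in female liver (r = 0.869). Hsd3b5 was closest to Slco1a1, an organic anion transporter higher in male liver (r = 0.830), Cyp7b1, an oxysterol and steroid hydroxylase (r = 0.792), and Ces3a (r = 0.789). Hsd11b1 was closest to Ces1e (r = 0.861), Gsta3 (r = 0.849) and Inmt (r = 0.844). Hsd17b6 was closest to Zcwpw1 (r = 0.782), Fabp1, the liver fatty acid binding protein (r = 0.756), and Gabarapl1 (r = 0.746). Srd5a1 was closest to Nudt7, a peroxisomal CoA hydrolase (r = 0.851), Cyp2c44 (r = 0.850) and Fabp1 (r = 0.848). All of these r values also carry the differences between arms and weeks.

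Other genes of steroid handling were counted from lists. Of 24 tested dehydrogenases, reductases and hydroxylases outside the 9, 2 were higher and 9 lower in CAC against Con at 6 weeks, and 2 higher and 12 lower at 8 weeks. The share of all genes called was 5.00% higher and 10.3% lower at 6 weeks, and 5.87% higher and 35.3% lower at 8 weeks. The median differences were −0.41 and −0.52, beside −0.12 and −0.21 over all genes. Hsd17b11, a dehydrogenase of androgens found on lipid droplets, fell by 0.77 ± 0.11 at 6 weeks (adjusted p = 1.056e-06) and by 0.97 ± 0.10 at 8 weeks (adjusted p = 2.709e-10). Hsd17b4, of peroxisomal fatty acid oxidation, fell by 0.68 ± 0.13 at 6 weeks (adjusted p = 0.0001563). Cyp7b1 fell to 9.61 ± 2.81 TPM in CAC livers, against 28.3 ± 1.87 TPM in NCAC livers and 26.5 ± 8.42 TPM in Con livers at 6 weeks (SD, n = 5 each; −1.36 ± 0.28 against Con, adjusted p = 0.0003574). Akr1c14, a 3α-hydroxysteroid dehydrogenase, fell to 126 ± 40.1 TPM in CAC livers, against 285 ± 29.9 TPM in NCAC livers and 287 ± 47.1 TPM in Con livers (−1.22 ± 0.28 against Con, adjusted p = 0.001539). None of the 24 was called by limma at 2 or 4 weeks (0 and 8 at an unadjusted p under 0.05).

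Redox partners were mixed. Of the 8, 2 were higher and 2 lower at 6 weeks, and 2 higher and 5 lower at 8 weeks. Beside these, 5.00% and 5.87% of all genes were higher and 10.3% and 35.3% lower. The 2 lower at 6 weeks became 0 without the other-tissue libraries and 5 after rescaling without the 20 highest genes. The 2 higher at 6 weeks, H6pd and Slc37a4, became 1 without the other-tissue libraries and stayed 2 after that rescaling. At 8 weeks the 2 higher became 0 in both settings. H6pd, which supplies the NADPH that Hsd11b1 uses, rose to 142 ± 16.5 TPM in CAC livers at 6 weeks, against 97.4 ± 5.55 TPM in NCAC livers and 92.1 ± 11.7 TPM in Con livers (0.62 ± 0.13 against Con, adjusted p = 0.000543). Slc37a4, the glucose-6-phosphate carrier that feeds H6pd, rose by 0.63 ± 0.20 (adjusted p = 0.02237). The Hsd11b1 transcript itself was lower by 0.35 in the same comparison. Cyb5b, an outer mitochondrial cytochrome b5, fell by 0.82 ± 0.19 (adjusted p = 0.002398).

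Of 12 tested genes for steroid sulfation, 1 was higher and 2 lower at 6 weeks and 1 higher and 3 lower at 8 weeks. Of all genes, 5.00% were higher and 10.3% lower at 6 weeks, and 5.87% higher and 35.3% lower at 8 weeks. That last share was larger than in the list. The list's gene for desulfation was absent from the deposited values, so desulfation was not measured. Sult1e1, which sulfates estrogens, was at 65.3 ± 67.9 TPM in CAC livers at 6 weeks, against 0.897 ± 0.662 TPM in NCAC livers and 6.29 ± 7.05 TPM in Con livers (SD, n = 5 each; 3.41 ± 0.83 against Con, adjusted p = 0.002981). Without the other-tissue libraries 0 genes of the list were called higher at 6 weeks, so the call of Sult1e1 was lost, and 2 were called lower. Sult2a8 fell by 2.99 ± 0.44 (adjusted p = 1.121e-06) and Papss2, which makes the sulfate donor, by 1.18 ± 0.25 (adjusted p = 0.0005682).

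Of the 6 receptors and plasma carriers tested, 0 were higher and 3 lower at 6 weeks, and 0 higher and 2 lower at 8 weeks, beside 10.3% and 35.3% of all genes lower, so that the list's share at 8 weeks was near that of all genes. Serpina6 averaged 154 ± 88.8 TPM in CAC livers at 6 weeks, against 971 ± 204 TPM in NCAC livers and 997 ± 223 TPM in Con livers (SD, n = 5 each; −3.01 ± 0.60 against Con, adjusted p = 0.0002542). At 8 weeks the 7 CAC livers ran from 7.07 to 603 TPM around a median of 37.1 TPM, against 453 to 1006 TPM in the NCAC and 385 to 1184 TPM in the Con livers (−4.00 ± 0.55, adjusted p = 1.244e-07). The glucocorticoid receptor Nr3c1 was not called at 6 weeks (−0.43 ± 0.17, adjusted p = 0.07959) or 8 weeks (−0.24 ± 0.16, adjusted p = 0.236). In NCAC against Con livers 0 genes of these 4 lists were called by limma at 6 or 8 weeks, and 1 and 4 were at an unadjusted p under 0.05.

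Genes known to differ between the sexes in liver were counted likewise. Of 11 tested male-biased genes 0 were higher and 4 lower at 6 weeks and 0 higher and 6 lower at 8 weeks, and of 15 female-biased genes 0 were higher and 5 lower at 6 weeks and 1 higher and 5 lower at 8 weeks. Beside these, 10.3% of all genes were lower at 6 weeks and 35.3% at 8 weeks, and the female-biased share at 8 weeks was near that of all genes. Slco1a1 fell at 6 weeks (−2.84 ± 0.83, adjusted p = 0.01577), as did Mup20, a pheromone-binding protein (−2.11 ± 0.44, adjusted p = 0.000517). Hao2, next to the Hsd3b genes, fell as well (−3.46 ± 0.45, adjusted p = 7.9e-08), and so did Cyp2b9 (−1.84 ± 0.28, adjusted p = 2.243e-06) and Cyp2b13 (−2.84 ± 0.47, adjusted p = 1.276e-05). Without the other-tissue libraries 1 male-biased and 3 female-biased genes were called lower at 6 weeks.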

How the data were processed

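RNA from 62 mouse livers was sequenced from stranded mRNA libraries, per the labels' protocols, and mm10 is the build named in the submitters' processing notes. The authors deposited 1 table of TPM values, which sum to 1e+06 per library. No source used here names the aligner, the quantifier or the depth, and TPM keeps no depth, so no counting intervals are given. Groups came from the labels. Values were tested as log2(TPM + 1), with a pseudocount of 1, in limma 3.58.1 (R 4.3.3) with 12 group means over all 62 libraries, a mean-variance trend and Benjamini-Hochberg adjustment over the 12160 genes that reached 1 TPM in 5 libraries or more. A call is an adjusted p under 0.05. The p-values measure the spread between libraries labelled biological replicates. The fit was tested on simulated data for CAC minus Con at 6 weeks over 12160 genes, where 54%, 96%, 98% and 98% of genes changed by 0.5, 1, 2 and 3 on the log2 scale were recovered. The simulation changed 200 genes and drew independent normal values, with the same spread for a gene in every group. It held no transcripts of other tissues, so these rates need not hold for the real livers. The enzymes and gene lists were chosen with earlier results of these data known. Named genes were the 9 enzymes, the 3 genes closest to each by r over the 62 libraries, and 2 to 4 members of each list with the smallest p. The closest genes were ranked among tested genes without the 9 enzymes and without predicted, clone, Rik or pseudogene symbols. Genes within 200 kb, Akr1c14, Akr1c20 and Nr3c1 were named after their values were seen. Alternatives were the pseudocount, the filter, 2 rescalings, a replicate block, leaving out each replicate and leaving out libraries with transcripts of other tissues. Leaving out the 3 libraries with adrenal transcripts, and the clock genes, were chosen after seeing the data. Promoters are from RefSeq (GRCm38.p6), matched by symbol for 7 of the 9 enzymes. Of the lists' genes, 1 is left unnamed and its result is not reported here.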

Additional observations from a re-analysis of the deposited data

Results flagged for a closer look

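In groups of 4 to 10 libraries, 3 of 108 combinations of enzyme and group held a library far from the rest, where chance gives about 1 in 20. Cyp17a1 stood at 2.901 TPM in Con at 6 weeks replicate 5, against 26.03 to 49.64 TPM in the other 4 Con livers. Hsd17b6 stood at 709.6 TPM in that same liver, against 464.2 to 519.3 TPM in the other 4. Hsd11b1 stood at 375.6 TPM in CAC at 6 weeks replicate 1, against 504.3 to 520.4 TPM in the other 4 CAC livers, and that library also held adrenal, pancreas and muscle transcripts, whose part was not tested. The difference between CAC and Con was further below 0 at 6 than at 2 weeks for Hsd3b2 (−2.222, limma adjusted p = 0.01707) and for Akr1c6 (−1.14, limma adjusted p = 0.02584).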

How the results depend on the processing

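No value changed direction where it was called. For CAC minus Con the count of enzymes called was 0 at 4 weeks and 1 after rescaling without the 20 highest genes, with 0 to 2 when 1 replicate was left out. At 6 weeks it was 5, with 6 at a pseudocount of 0.1 or without the 20 highest genes (Hsd3b5 added), 4 by median-of-ratios (Hsd11b1 lost), and 2 without the libraries with transcripts of other tissues or without those with adrenal transcripts, where 428 of 11870 and 447 of 12079 genes were lower, with 2 to 5 when 1 replicate was left out. At 8 weeks leaving out 1 replicate gave 8 to 9. For CAC minus NCAC it was 0 at 4 weeks and 1 after median-of-ratios rescaling, with 0 to 1 by leaving out replicates, which gave 4 to 6 at 6 weeks and 6 to 8 at 8 weeks. The change between 6 and 2 weeks was called for 2, and for 0 without either set of libraries, with 0 to 2 by leaving out replicates. The cause was not tested. Rescaling moved the split of all genes at 8 weeks from 714 higher and 4291 lower to 1622 and 1603 by median-of-ratios and 537 and 7120 without the 20 highest genes, and at 6 weeks from 608 and 1254 to 1034 and 692, and 506 and 4100. Samples with the same replicate number did not deviate together at the median (median r between −0.0969 and 0.0319). Single pairs ran from −0.368 to 0.364 at 4 weeks, and 6 of 15 pairs were above 0.1 at 6 weeks. These values cannot exclude a pairing by number, and the main fit used none. With the replicate block 126 of 126 enzyme values kept direction and call.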
